A study of Mus musculus with 6 samples.

Results

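The 9 genes described here encode enzymes that make and break down heme, the iron porphyrin that cytochromes P450, catalase and the respiratory chain carry. They are Alas1, Alad, Uros, Urod, Cpox, Ppox and Fech of heme synthesis, in pathway order, and the heme oxygenases Hmox1 and Hmox2. They were chosen by gene symbol from a table of 23282 genes, with earlier results of these data known. All 9 were found and tested. RNA was taken from the colon of 8-week-old wild-type C57BL/6J mice that received 40 mg/kg PCN (pregnenolone 16α-carbonitrile, a steroid that activates rodent PXR) or vehicle, a mixture of DMSO and corn oil. PCN was given by 3 intraperitoneal injections, 8 h apart, and the colon was taken 8 h after the last one. There were 3 vehicle libraries (Veh replicates 3, 5 and 6) and 3 PCN libraries (PCN replicates 4, 5 and 6). Colon tissue was used, so the values sum over epithelium, muscle, stroma and immune cells, and fewer cells of a type cannot be told apart from less RNA per cell.

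Heme synthesis starts and ends in mitochondria. ALAS1 joins glycine and succinyl-CoA to 5-aminolevulinate and sets the rate of the pathway in most tissues, and heme itself lowers the amount and the import of the enzyme. The middle steps run in the cytosol, and coproporphyrinogen oxidase, protoporphyrinogen oxidase and ferrochelatase finish the ring and insert iron. In liver, Alas1 is known to be induced together with cytochromes P450 by drugs that activate PXR or its sister receptor CAR. Heme oxygenases open the ring and release biliverdin, carbon monoxide and iron. HMOX1 is the form induced by stress and heme, and HMOX2 is the constitutive form.

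Total counts were 21924026 to 25422856 per library, and 20538 to 20963 genes had at least 1 count. The members were well covered, with 148 to 13354 counts per library. The colon surface markers (Car1, Car4, Slc26a3 and others, 7 of 7 in the table) summed to 3684 to 6889 CPM, while all 8 hepatocyte markers together summed to 15.5 to 38.9 CPM. CPM are counts scaled to library totals with TMM factors. A gene was called at an adjusted p under 0.05. Over the 16586 genes tested, edgeR called 6 genes (0.0362%) and DESeq2, the second test, called 214 (1.29%). DESeq2 gave some genes of low counts no adjusted p, among them Alas2, Flvcr2 and Tdo2. Such genes could not be called by it, and its shares are of all 16586 genes. The labels do not say if the libraries are of different mice. The p-values of edgeR and DESeq2 rest on the spread of libraries within groups, estimated in part from other genes. This spread may be technical.

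The 250 bases before an annotated start of Alas1 and of Cpox are shown because these were the only members whose vehicle and PCN libraries did not overlap. Both are from RefSeq (GRCm38.p6), written 5′ to 3′ on the strand of the gene, with capitals marking motif matches.
Alas1, chr9:106247731-106247980, minus strand: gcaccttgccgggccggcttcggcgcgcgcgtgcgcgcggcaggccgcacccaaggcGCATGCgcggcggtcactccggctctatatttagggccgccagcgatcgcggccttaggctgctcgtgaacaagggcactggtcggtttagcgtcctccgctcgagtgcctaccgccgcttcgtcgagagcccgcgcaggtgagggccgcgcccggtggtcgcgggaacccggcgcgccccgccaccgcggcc
Cpox, chr16:58669958-58670207, plus strand: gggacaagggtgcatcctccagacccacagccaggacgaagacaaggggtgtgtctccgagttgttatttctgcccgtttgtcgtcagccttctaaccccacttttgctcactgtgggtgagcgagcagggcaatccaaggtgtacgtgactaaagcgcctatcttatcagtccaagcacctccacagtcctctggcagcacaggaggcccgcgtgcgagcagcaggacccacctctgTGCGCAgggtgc
The Alas1 stretch was 74.4% G or C with 42 CG dinucleotides, and the Cpox stretch was 58.8% G or C with 11. RefSeq gives Alas1 a second start, at base 106247954, and the start used here, at base 106247730, is the one that equals a start in GENCODE. The gene as annotated in GENCODE begins further upstream, at base 106248654, so the stretches before both RefSeq starts lie within it. The 250 bases before the second start, not shown, were 62.4% G or C with 16 CG dinucleotides and held GGGCGG, while GCATGC lay 31 bases after that start. The capitals in Alas1 mark GCATGC, the centre of the palindromic site of the transcription factor NRF1, and those in Cpox mark TGCGCA, the outer part of the same site. GCATGC was added to the search after the sequence was seen. Windows of 300 bases around the start were given for 7 of the members, 12 windows in all, and both strands were searched. GCATGC is held by 7.93% and TGCGCA by 7.76% of the 32851 windows of all genes. The nuclear receptor half-site AGGTCA, present in 16.3% of all windows, was found in none of the 12, alone or as a direct repeat spaced by 3 or 4 bases. The search covered only these windows and exact matches, so receptor sites further away or with other bases would be missed. The windows of Alad and of Alas1 overlapped each other in part, as did some of Hmox2. GGGCGG, in 35.7% of all windows, was found in at least 1 window of Alad, Alas1, Hmox2, Ppox, Urod and Uros, and CCAAT, in 37.4%, in those of Alad, Ppox and Urod. CACGTG, in 7.15% of all windows, was found for Alad, Urod and Uros, and AGATAA, in 11.2%, for Cpox. TATAAA (13.6% of all windows) and TGACTCA (5.2%) were found in none of the 12.

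Alas1 was the member with the largest difference between the groups. Its level was 174, 154 and 135 CPM in Veh replicates 3, 5 and 6, against 536, 437 and 302 CPM in PCN replicates 4, 5 and 6. Every PCN library was above every vehicle library, and the PCN libraries spread more widely than the vehicle libraries. The means were 154 ± 19.3 CPM after vehicle and 425 ± 118 CPM after PCN (SD, n = 3 per group), a 2.76-fold difference. EdgeR gave a log2 ratio of PCN over vehicle of 1.46 (standard error 0.20, 95% confidence interval 1.00 to 1.92), which did not pass its threshold (unadjusted p = 7.58e-05, adjusted p = 0.0786 from edgeR). DESeq2 gave 1.45 and called Alas1 higher (adjusted p = 3.44e-09 from DESeq2). The exact permutation test gave p = 0.10 (2-sided), the smallest p that 3 libraries against 3 can give. Among the 16586 genes tested, Alas1 ranked 74 by log2 ratio, 16 by the p of edgeR and 8 by the p of DESeq2. With 1 library left out in turn, the log2 ratio was 1.26 to 1.64 and the adjusted p 0.0635 to 0.310 from edgeR, and with genes of low counts kept the adjusted p was 0.0237. Alas1 (ENSMUSG00000032786) lies on the minus strand of chromosome 9 (GRCm38, bases 106233455 to 106248654). It shares 465 of 6174 exon bases with 4930500F10Rik on the opposite strand, which had at most 0.281 CPM in any library.

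**Figure D1:**
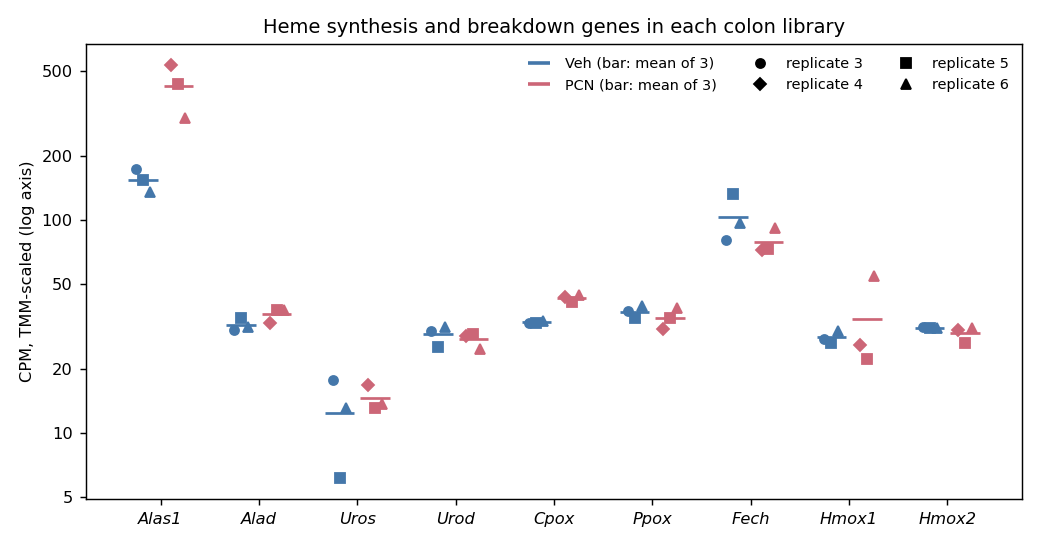
CPM (TMM-scaled, log axis) of the 9 genes in each library, vehicle in blue and PCN in red, with a marker shape for each replicate number and a bar at the mean of 3. Alas1 lies at 135 to 174 CPM after vehicle and 302 to 536 CPM after PCN, Cpox is the only other gene with separate groups, and single libraries stand off for Uros (Veh replicate 5), Fech (Veh replicate 5) and Hmox1 (PCN replicate 6).

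The levels of other cell types moved with the groups in part. Summed goblet cell markers (8 of 8 in the table, Muc2, Agr2, Fcgbp and others, none at 0) were 22443 to 27091 CPM after vehicle and 29770 to 41876 CPM after PCN. Summed fibroblast and matrix markers (10 of 10, none at 0) were 1440 to 1829 CPM and 2109 to 2646 CPM. Neither sum overlapped between groups, with ratios of the group means of 1.44 and 1.42, against 2.76 for Alas1. EdgeR called none of either list, with 4 of 8 goblet genes and 7 of 10 fibroblast genes higher at a raw p under 0.05 and 0 lower. DESeq2 called 2 goblet genes higher, Muc2 and Agr2, and 4 fibroblast genes, Col3a1, Col6a2, Col6a3 and Fn1. Per 1000 CPM of goblet markers, Alas1 was at 6.41, 6.43 and 6.02 CPM in Veh replicates 3, 5 and 6, against 12.8, 12.9 and 10.1 CPM in PCN replicates 4, 5 and 6, and these ratios, chosen after seeing the data, did not overlap. Summed smooth muscle markers (8 of 8, none at 0) were 2771, 1753 and 1830 CPM in Veh replicates 3, 5 and 6, against 5158, 3380 and 1571 CPM in PCN replicates 4, 5 and 6. PCN replicate 6 was the lowest library for this sum and PCN replicate 4 the highest. Summed stem and proliferating cell markers (12 of 12, none at 0) were 289 to 376 CPM after vehicle and 365 to 586 CPM after PCN, a ratio of 1.46 with overlap. Of these 12 genes, 11 lay above 0, with a median log2 ratio of 0.66. EdgeR called none of them (6 higher and 0 lower at a raw p under 0.05), and DESeq2 called the replication genes Mcm2, Mcm3, Mcm5 and Mcm6 higher. Small intestine markers (11 of 11 in the table) summed to 395 to 491 CPM and 379 to 423 CPM. Of the 10 tested, 8 lay below 0, with a median log2 ratio of -0.71. Enpep, an aminopeptidase, was at 54.9 to 68.7 CPM after vehicle and 19.6 to 23.7 CPM after PCN and was called lower by both tests (log2 ratio -1.53, adjusted p = 0.0262 from edgeR, adjusted p = 1.35e-20 from DESeq2). Apoa1, an apolipoprotein, was called lower by DESeq2 alone (adjusted p = 9.51e-04 from DESeq2, 0.287 from edgeR). The ratio of Alas1 to the marker sum also stayed apart between groups for fibroblast, smooth muscle, colon surface, small intestine, proliferating cell, hepatocyte and Hox position genes, and overlapped for macrophage and red cell markers. The group means of the marker sums had ratios of 0.855 to 1.59, against 2.76 for Alas1. Such ratios therefore largely carry the Alas1 difference and do not tell which cells hold its RNA. The part of these cell types in the Alas1 level was not tested.

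Alad, the second enzyme, which condenses 5-aminolevulinate to porphobilinogen, was at 30.2, 34.5 and 31.3 CPM in Veh replicates 3, 5 and 6, against 32.8, 37.6 and 37.6 CPM in PCN replicates 4, 5 and 6. The groups overlapped, and the log2 ratio was 0.17 (95% confidence interval -0.08 to 0.42, adjusted p = 0.612 from edgeR). Alad lies on the minus strand of chromosome 4 (GRCm38, bases 62509169 to 62519918).

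Uros, which closes the tetrapyrrole ring to uroporphyrinogen III, was at 17.7, 6.10 and 13.1 CPM in Veh replicates 3, 5 and 6, against 16.7, 13.1 and 13.6 CPM in PCN replicates 4, 5 and 6. Veh replicate 5 was the lowest library, with 148 counts (95% exact Poisson interval 125 to 174, counting error only), against 317 to 417 counts in the other libraries. The log2 ratio was 0.24 (95% confidence interval -0.54 to 1.01, adjusted p = 0.835 from edgeR), and without Veh replicate 5 it was -0.09. Uros lies on the minus strand of chromosome 7 (GRCm38, bases 133686243 to 133710072). Bccip overlaps it on the opposite strand, with 0 exon bases shared.

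Urod, which takes carboxyl groups off the ring to give coproporphyrinogen, was at 30.1, 25.3 and 31.5 CPM in Veh replicates 3, 5 and 6, against 28.4, 29.1 and 24.8 CPM in PCN replicates 4, 5 and 6. The groups overlapped, with a log2 ratio of -0.08 (95% confidence interval -0.37 to 0.21, adjusted p = 0.859 from edgeR). Urod lies on the minus strand of chromosome 4 (GRCm38, bases 116989965 to 116994413).

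Cpox, which turns coproporphyrinogen to protoporphyrinogen in the space between the mitochondrial membranes, was the only member besides Alas1 without overlap. It was at 32.8, 32.9 and 33.5 CPM in Veh replicates 3, 5 and 6, against 43.2, 40.9 and 44.1 CPM in PCN replicates 4, 5 and 6. Both groups were tight, with means of 33.1 ± 0.366 and 42.7 ± 1.66 CPM (SD, n = 3 per group). The ratio of the means was 1.29 and the log2 ratio 0.37 (standard error 0.09, 95% confidence interval 0.17 to 0.57). It passed neither test over all genes (unadjusted p = 0.00291 and adjusted p = 0.287 from edgeR, adjusted p = 0.0779 from DESeq2). With 1 library left out in turn, the log2 ratio was 0.33 to 0.40. Cpox (ENSMUSG00000022742) lies on the plus strand of chromosome 16 (GRCm38, bases 58670292 to 58717636), and shares 204 of 6661 exon bases with Gpr15 on the opposite strand, which had 0.392 to 1.08 CPM.

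Ppox, which oxidises protoporphyrinogen to protoporphyrin, was at 37.1, 34.6 and 39.4 CPM in Veh replicates 3, 5 and 6, against 30.8, 34.7 and 38.6 CPM in PCN replicates 4, 5 and 6. The groups overlapped, with a log2 ratio of -0.09 (95% confidence interval -0.36 to 0.17, adjusted p = 0.802 from edgeR). Ppox lies on the minus strand of chromosome 1 (GRCm38, bases 171275990 to 171281186). It shares 791 of 4515 exon bases with B4galt3 on the opposite strand, which had 37.6 to 50.1 CPM. Whether counting used the strand is not stated, so reads in the shared bases cannot be assigned with certainty.

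Fech, ferrochelatase, which inserts ferrous iron into protoporphyrin, was at 80.6, 132 and 96.6 CPM in Veh replicates 3, 5 and 6, against 72.3, 73.0 and 91.5 CPM in PCN replicates 4, 5 and 6. Veh replicate 5 was the highest library and PCN replicate 6 lay within the vehicle range. The log2 ratio was -0.39 (95% confidence interval -0.80 to 0.03, adjusted p = 0.517 from edgeR, adjusted p = 0.432 from DESeq2), and -0.17 without Veh replicate 5. Fech lies on the minus strand of chromosome 18 (GRCm38, bases 64452914 to 64490251), and no other annotated gene overlaps it.

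Hmox1, the inducible heme oxygenase, was at 27.6, 26.3 and 30.1 CPM in Veh replicates 3, 5 and 6, against 25.7, 22.1 and 54.6 CPM in PCN replicates 4, 5 and 6. PCN replicate 6 was the highest library, and the other PCN libraries were below all vehicle libraries. The log2 ratio of 0.28 (95% confidence interval -0.42 to 0.99, adjusted p = 0.777 from edgeR) therefore rested on PCN replicate 6, and it was -0.25 without it (adjusted p = 0.548 from edgeR). Macrophages, which take up red cells, carry much Hmox1. The summed macrophage markers (10 of 10, none at 0 in all libraries) were 167 to 291 CPM after vehicle and 244, 311 and 347 CPM in PCN replicates 4, 5 and 6. Among targets of NRF2, the stress factor that induces Hmox1, PCN replicate 6 was the highest library for 6 of 10. Veh replicate 5 was the highest for 2, and PCN replicates 4 and 5 for 1 each. This count was made after the values were seen, and the share over all genes was not computed. PCN replicate 6 was the highest for Slc7a11, the cystine carrier (15.3 CPM, against 2.86 to 7.87 CPM in the other libraries), and for Gsr, glutathione reductase (179 CPM, against 101 to 128 CPM). The part of these in the Hmox1 level was not tested. Hmox1 lies on the plus strand of chromosome 8 (GRCm38, bases 75093621 to 75100589).

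Hmox2, the constitutive heme oxygenase, was the steadiest member within the vehicle group. It was at 31.2, 31.1 and 30.9 CPM in Veh replicates 3, 5 and 6, against 30.4, 26.5 and 31.0 CPM in PCN replicates 4, 5 and 6. Its log2 ratio was -0.08 (95% confidence interval -0.32 to 0.16, adjusted p = 0.810 from edgeR). Hmox2 lies on the plus strand of chromosome 16 (GRCm38, bases 4726361 to 4766742), and shares 892 of 2217 exon bases with Cdip1 on the opposite strand (47.6 to 65.2 CPM). As for Ppox, reads in the shared bases cannot be assigned with certainty. The Hmox2 level and the ratio of Hmox1 to Hmox2 given below carry this limit.

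Of the 9 members, 5 lay above 0 and 4 below it, and their median was 0.17, against 0.01 over all genes tested. EdgeR called 0 of them, beside 0.0301% of all genes higher and 0.00603% lower. At a raw p under 0.05 it gave 2 members higher and 0 lower, beside 9.98% of all genes (6.25% higher, 3.73% lower). DESeq2 called Alas1 alone, beside 1.03% of all genes higher and 0.259% lower. With a replicate block, edgeR called 0.446% of all genes, Alas1 among them, but that fit compares only the libraries that share a number, replicates 5 and 6. The 2 members without overlap, Alas1 and Cpox, were both higher after PCN, as were 8.69% of all genes tested.

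**Figure D2:**
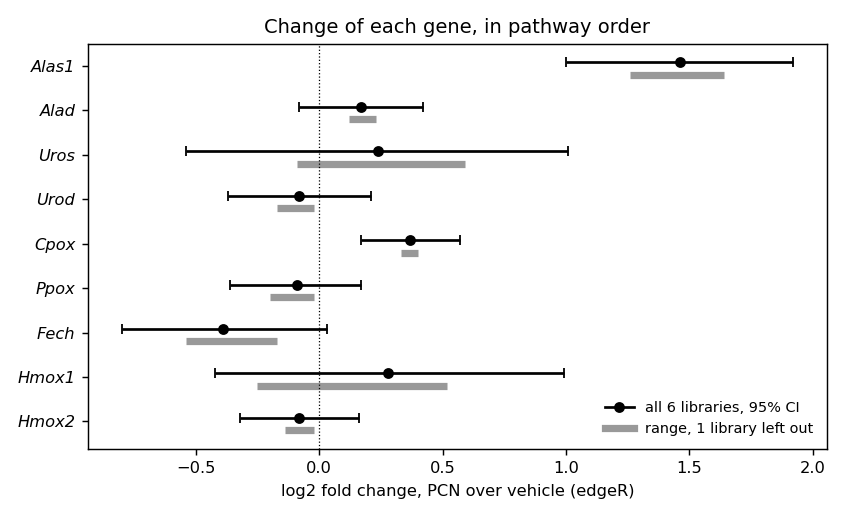
Log2 ratio of PCN over vehicle for each of the 9 genes from edgeR (points, with 95% confidence intervals) and, as grey bars, its range with 1 library left out in turn. The intervals of Alas1 (1.00 to 1.92) and Cpox (0.17 to 0.57) lie above 0, those of the other 7 genes include 0, and the grey bars of Uros and Hmox1 cross 0.

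Levels were compared between genes by the authors' FPKM, which divides each count by the exon length and the total of the library. After vehicle, Alas1 was the most abundant member at 25.3 ± 2.75 FPKM (SD, n = 3 for each value here). It was followed by Alad at 17.4 ± 1.15, Hmox1 at 16.3 ± 1.46 and Hmox2 at 14.2 ± 0.244 FPKM. Urod had 11.4 ± 1.43, Ppox 8.34 ± 0.706, Fech 7.57 ± 1.89, Cpox 5.04 ± 0.164 and Uros 3.49 ± 1.65 FPKM. Neighbours in this order did not separate over the vehicle libraries for Alad and Hmox1, for Ppox and Fech, and for Cpox and Uros. After PCN, Alas1 stood at 67.7 ± 18.6 FPKM, and the next were Hmox1 at a mean of 19.2 FPKM (12.5 to 30.7 over the libraries) and Alad at 18.9 ± 1.54 FPKM, whose libraries overlapped. Hmox2 followed at 13.0 ± 1.04, Urod at 10.4 ± 0.889, Ppox at 7.56 ± 0.856, Cpox at 6.31 ± 0.224, Fech at 5.61 ± 0.771 and Uros at 3.98 ± 0.531 FPKM. Cpox and Fech overlapped over the PCN libraries. The exon length used for Fech was 13838 bases, against 1751 to 6661 bases for the other members, and any bias in these lengths shifts the order but not the comparison of groups.

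Alas1 made up 35.3%, 32.3% and 29.1% of the summed FPKM of the 7 synthesis genes in Veh replicates 3, 5 and 6, against 62.7%, 56.6% and 46.9% in PCN replicates 4, 5 and 6. The groups did not overlap (exact permutation test, 2-sided p = 0.10, the smallest possible with 3 against 3). The other 6 synthesis genes together stood at 53.1 ± 1.97 FPKM after vehicle and 52.8 ± 1.95 FPKM after PCN (SD, n = 3 per group), within each other's spread (exact permutation test, p = 1.00). The ratio of Alas1 to Fech, the first and the last enzyme, was 4.83, 2.60 and 3.13 by FPKM in Veh replicates 3, 5 and 6, against 16.6, 13.4 and 7.39 in PCN replicates 4, 5 and 6. The ratio of Hmox1 to Hmox2 was 1.07 to 1.23 after vehicle and 1.07, 1.06 and 2.23 in PCN replicates 4, 5 and 6, and PCN replicate 6 stood far above the rest.

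**Figure D3:**
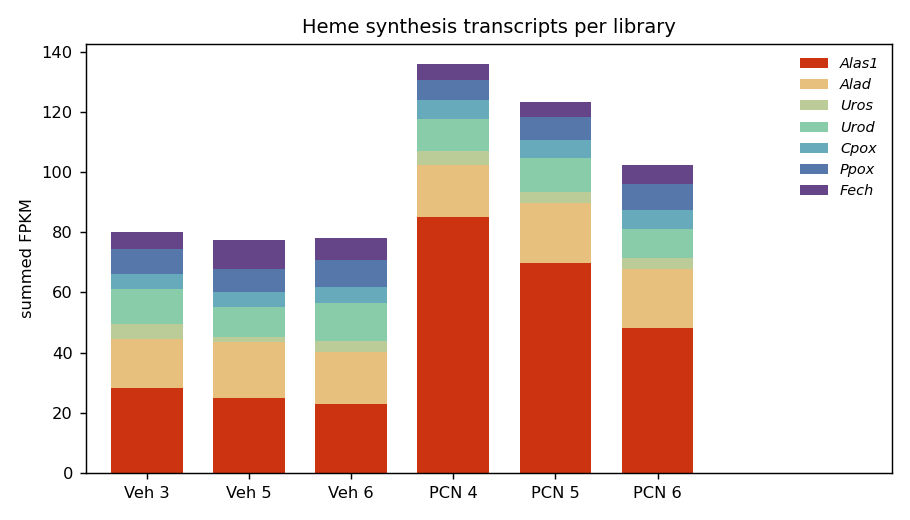
Summed FPKM of the 7 heme synthesis genes in each library, with 1 colour for each gene and bars from 0. The red Alas1 part is 22.8 to 28.2 FPKM after vehicle and 48.0 to 85.1 FPKM after PCN, and the other genes together are at 51.8 to 55.4 and 50.6 to 54.3 FPKM.

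Alas2, the erythroid form of the first enzyme, had only 0.783 to 1.61 CPM after vehicle and 1.03 to 2.75 CPM after PCN, with a log2 ratio of 0.57 (adjusted p = 0.698 from edgeR), which was 0.05 without PCN replicate 6 and up to 0.88 with another library left out. Red cell markers (Alas2 among them, 9 of 10 in the table, none at 0 in all libraries) summed to at most 33.4 CPM after vehicle and 50.2 CPM after PCN, and the groups overlapped. The globin genes Hba-a1 (6.64 to 11.9 CPM after vehicle, 13.6 to 19.5 CPM after PCN) and Hbb-bs (12.1 to 14.9 and 15.3 to 23.0 CPM) were higher in every PCN library without a call (adjusted p = 0.467 and 0.520 from edgeR), and both were highest in PCN replicate 6. Slc4a1 and Epb42 had at most 0.339 CPM in any library. Of the 5 red cell genes tested, 4 lay above 0 and 1 below it, with log2 ratios from -0.73 to 0.66. Their median of 0.57 equals the value of Alas2, which is 1 of the 5. The part of red cells in the levels of Alas2, Alas1 and Hmox1 was not tested. Of 14 genes that carry substrates, iron or intermediates for the mitochondrial steps, none was called by edgeR (0 at an raw p under 0.05) or DESeq2, and the median log2 ratio was 0.01. The most abundant of them, Slc25a39, a mitochondrial glutathione carrier, was at 154 to 165 CPM after vehicle and 171 to 186 CPM after PCN without overlap (log2 ratio 0.16, adjusted p = 0.532 from edgeR). Of 10 heme carriers and binding proteins, none was called by either test (0 at an raw p under 0.05 from edgeR), with a median of -0.07. Abcg2, an exporter of porphyrins, had a log2 ratio of 0.11 (adjusted p = 0.830 from edgeR). Of the 3 genes of heme a and heme c maturation, none was called (0 at an raw p under 0.05 from edgeR), and Cox15 had a log2 ratio of -0.09.

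Downstream of the oxygenases, none of 6 genes was called by edgeR or DESeq2 (1 higher and 0 lower at an raw p under 0.05 from edgeR). Fth1, the ferritin heavy chain that stores iron, was at 2602, 2099 and 2449 CPM in Veh replicates 3, 5 and 6, against 2387, 3691 and 3534 CPM in PCN replicates 4, 5 and 6. The groups overlapped through PCN replicate 4 (log2 ratio 0.43, adjusted p = 0.475 from edgeR). Of 11 genes of iron uptake and sensing, none was called by edgeR or DESeq2 (2 higher and 1 lower at an raw p under 0.05 from edgeR). Tfrc, the transferrin receptor, was at 208, 294 and 274 CPM after vehicle and at 480, 348 and 335 CPM after PCN. Its groups did not overlap (log2 ratio 0.58, adjusted p = 0.378 from edgeR and 0.0999 from DESeq2). Of the 11 genes, 4 were higher and 2 lower after PCN without overlap, beside 8.69% and 7.39% of all genes tested. Besides Tfrc, these were Hfe, Cybrd1 and Pcbp1, higher, and Pcbp2 and Ireb2, lower. The log2 ratios of Hfe, Cybrd1 and Ireb2 were 0.28, 0.61 and -0.16, with Cybrd1 at only 2.84 to 6.87 CPM. The iron chaperones Pcbp1 and Pcbp2 had log2 ratios of 0.23 and -0.23 (adjusted p = 0.454 and 0.434 from edgeR).

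Among 15 tested regulators of Alas1 and Hmox1, none was called by edgeR or DESeq2 (0 higher and 1 lower at an raw p under 0.05 from edgeR), and the median log2 ratio was -0.12. Ppargc1a, a coactivator that drives Alas1 in fasted liver, was at 29.9, 50.4 and 42.5 CPM in Veh replicates 3, 5 and 6, against 27.3, 24.9 and 28.7 CPM in PCN replicates 4, 5 and 6. Its PCN libraries lay below all vehicle libraries (log2 ratio -0.60, adjusted p = 0.382 from edgeR). Nfe2l2, which encodes NRF2, had a log2 ratio of 0.04 (adjusted p = 0.962 from edgeR). Of 10 NRF2 targets other than Hmox1, 9 had a positive log2 ratio, with a median of 0.23, and none was called by either test (1 higher and 0 lower at an raw p under 0.05 from edgeR). Gsr had a log2 ratio of 0.36 and Txnrd1, a thioredoxin reductase, of 0.25 (adjusted p = 0.481 and 0.501 from edgeR). Without PCN replicate 6, that of Gsr was 0.16.

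Proteins that carry heme differed among themselves. Of 71 genes named as cytochromes P450, 44 were tested, and edgeR called none (4 higher and 8 lower at an raw p under 0.05) while DESeq2 called 3 higher and 4 lower. Cyp2c55 was the most abundant of those that rose by DESeq2, at 1070 to 2334 CPM after vehicle and 3634 to 5017 CPM after PCN (log2 ratio 1.56 and adjusted p = 0.188 from edgeR, 1.54 and adjusted p = 6.79e-06 from DESeq2). Cyp3a25 and Cyp3a44, of which Cyp3a44 stood at 0.577 to 1.45 CPM and 7.58 to 11.9 CPM, rose by DESeq2 as well (adjusted p = 6.61e-07 and 2.02e-14 from DESeq2, 0.140 and 0.0627 from edgeR). Reads may be split between near-identical Cyp3a genes. In the DESeq2 test Cyp3a13 fell by 0.87 (log2) and Cyp4f14 fell by 0.62 (log2), with adjusted p = 3.04e-04 and 0.00127, against 0.178 and 0.187 from edgeR. Cyp2s1 had a log2 ratio of 0.13. Of the 44 tested, 27 lay below 0, with a median log2 ratio of -0.13. All P450 genes summed to 2455 to 4096 CPM after vehicle and 4935 to 6448 CPM after PCN, and the groups did not overlap. The mean of this sum differed by 2666 CPM between groups and that of Cyp2c55 alone by 2934 CPM. Without Cyp2c55, a choice made after seeing the data, the sum was 1385 to 1762 CPM after vehicle and 1300 to 1430 CPM after PCN, with overlap. Per 1000 CPM of P450 RNA, Alas1 was at 42.4, 62.6 and 46.8 CPM in Veh replicates 3, 5 and 6, against 88.6, 67.7 and 61.1 CPM in PCN replicates 4, 5 and 6, and this ratio overlapped between groups. Without Cyp2c55 in the sum, the ratio was 77.3 to 111 CPM after vehicle and 232 to 394 CPM after PCN, without overlap.

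Por, the reductase that passes electrons to P450 and to heme oxygenase, was at 184, 212 and 178 CPM in Veh replicates 3, 5 and 6, against 234, 268 and 240 CPM in PCN replicates 4, 5 and 6. The groups did not overlap, but neither test called it (log2 ratio 0.37, adjusted p = 0.334 from edgeR and 0.132 from DESeq2). Cyb5b, a cytochrome b5 of the outer mitochondrial membrane, had a log2 ratio of 0.07. Of 18 other heme proteins, edgeR called none (2 higher and 1 lower at an raw p under 0.05) and DESeq2 called Nox1 alone, the superoxide-forming oxidase of colon epithelium. By DESeq2, Nox1 rose from 2.94 to 5.32 CPM after vehicle to 6.14 to 11.9 CPM after PCN (log2 ratio 1.14 and adjusted p = 0.344 from edgeR, 1.13 and adjusted p = 0.0390 from DESeq2). Duox2, another epithelial oxidase, had a log2 ratio of 0.72 and Cat, catalase, one of -0.38 (adjusted p = 0.403 and 0.429 from edgeR). Tdo2 had the largest log2 ratio of this list (1.42, adjusted p = 0.532 from edgeR) and no adjusted p from DESeq2. It was at only 0.339 to 2.53 CPM, with overlap.

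**Figure D4:**
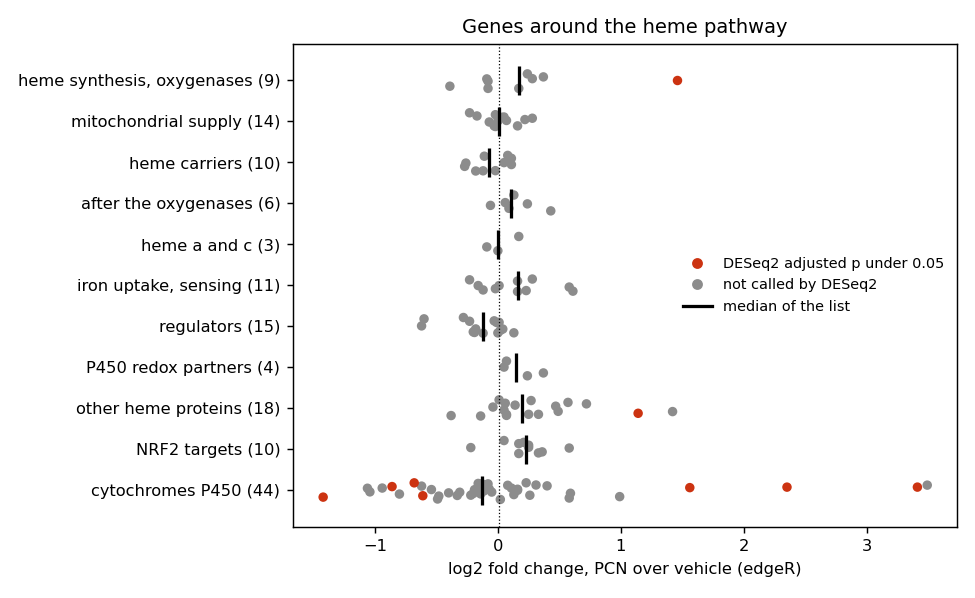
Log2 ratio of PCN over vehicle (edgeR) for each tested gene of the members and of 10 lists around the heme pathway, with the number tested in brackets. Red points passed DESeq2, bars are list medians and the dotted line is the median of all genes at 0.01. Besides Alas1, only Nox1 and 7 cytochromes P450 are red, and the medians lie between -0.13 and 0.23.

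The genes whose pattern over the 6 libraries was most like that of Alas1 were Tnfrsf21, Abcg8, Tnks1bp1, Copz1 and Myof. Pearson correlations of log2 CPM with Alas1 were 0.9972, 0.9952, 0.9935, 0.9918 and 0.9914, the highest among 14910 genes that averaged at least 1 CPM. They are given as a description, since the 6 points share their libraries and split by treatment. Tnfrsf21, a death receptor, was at 80.7, 79.9 and 74.8 CPM in Veh replicates 3, 5 and 6, against 111, 104 and 93.1 CPM in PCN replicates 4, 5 and 6, the same order of libraries as for Alas1 within each group. Abcg8, a subunit of a sterol exporter, was at 2.82 to 3.05 CPM and 4.70 to 7.23 CPM (log2 ratio 1.01, adjusted p = 0.283 from edgeR, 0.0226 from DESeq2). Among the members, Cpox was most like Alas1, with a correlation of 0.89, and Fech least, with -0.72.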

How the data were processed

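Colon RNA from 3 vehicle and 3 PCN libraries was analysed, grouped by the sample titles. According to the supplementary methods, the authors removed adapters and low-quality reads, mapped with STAR and made the deposited counts per gene with HTSeq. A pig assembly is named there and mm10 in the labels, while the identifiers are of mouse. Library kits also differ between these sources (TruSeq and SMARTER), and the strand setting and tool versions are not given in the sources used here. The authors' deposited FPKM equalled counts divided by total counts and by exon length, with exon lengths of GENCODE M21 within 1 base for all members. Columns of the authors' own log2 fold change, p-values and regulation mark were not used. No per-sample column was left unused.

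EdgeR 4.0.16 (R 4.3.3) was run on all counts with TMM scaling, filterByExpr (minimum count 10, minimum total 15), glmQLFit and glmQLFTest. Adjustment was by Benjamini-Hochberg over 16586 genes. DESeq2 1.42.0, limma 3.58.1 on log2(FPKM + 1) and log2(FPKM + 0.1), other scalings, no filter, a robust fit, a replicate block and each library left out were alternatives. The fits were tested on simulated counts with 200 changed genes. Standard errors were taken from the F statistic of edgeR. Total counts were 21924026 to 25422856 per library. Counting error was smallest for Alas1 and larger for low genes: the 148 Uros counts of Veh replicate 5 had a 95% exact Poisson interval of 125 to 174, and Alas2 had only 19 to 65 counts per library. Coordinates are those of GENCODE M21 (GRCm38), which holds 22256 of 23282 identifiers. The deposited start and end equalled these for 441 and were not used. Promoter windows came from RefSeq (GRCm38.p6) and were given for 7 of 9 members.

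The members and lists were chosen with earlier results of these data known. Named genes were all members, up to 4 genes per list with the smallest edgeR p under 0.05, the most abundant gene of each list, the 4 P450 genes with the largest gain and the 2 with the largest loss in CPM, and the 5 genes most like Alas1. Genes of the marker lists, the genes that overlap a member, and Slc7a11 were named beside the results they touch, Slc7a11 after its values were seen. Hfe, Cybrd1, Ireb2, Flvcr2 and Tdo2 were also named after their values were seen. A planned description of protein sequences was not made. The result of 1 further gene of the pathway is not reported here, and sums over synthesis genes cover the 7 members only.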

Additional observations from a re-analysis of the deposited data

How the results depend on the processing

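EdgeR called 0 of the 9 genes higher and 0 lower, and 1 higher (Alas1) with DESeq2, with no filter on low counts and with a replicate block. The Alas1 log2 ratio was then 1.45 (adjusted p = 3.44e-09 from DESeq2), 1.45 (adjusted p = 0.0237 from edgeR) and 1.33 with the block (adjusted p = 0.00354 from edgeR). Over all alternatives the Alas1 adjusted p lay between 3.44e-09 and 0.310. The block uses the replicate numbers 5 and 6 that both groups share. Veh replicate 3 and PCN replicate 4 have no partner and do not bear on its ratio. The residual spread of a gene in that fit also comes from replicates 5 and 6 alone, so its adjusted p is weak grounds for a call. Deviations from the group means correlated at -0.15 for replicate 5 and -0.09 for replicate 6, within the range of -0.15 to 0.16 over all pairs of a vehicle and a PCN library. Such correlations cannot tell whether libraries of the same number were paired. The block moved the count of calls over all genes from 6 to 74. That count was 27 of 23282 without the filter, 214 by DESeq2, 3 with upper-quartile scaling and 3 with total library size. With 1 library left out in turn it was 0 without Veh replicate 6 or without any single PCN replicate (edgeR, no DESeq2 fit was run there), 4 without Veh replicate 5 and 24 without Veh replicate 3. Leaving out 1 library gave 0 calls among the members and an Alas1 log2 ratio of 1.26 to 1.64. The direction turned, with no call in any setting, for Uros without Veh replicate 5 (-0.09, at most 0.59 with 1 library left out) and Hmox1 without PCN replicate 6 (-0.25, at most 0.52). Without Veh replicate 5 it turned for Abcg2 (-0.06, at most 0.21), Cox15 (0.02), Nfe2l2 (-0.13, at most 0.22) and Cyp2s1 (-0.01, at most 0.28). It turned for Nfe2l2 with total library size (-0.01) and without PCN replicate 6 (-0.03), and for Cyb5b with the block, without Veh replicate 6 and without PCN replicate 4 (-0.01 each, at most 0.16). Of 126 member values under alternatives, 121 kept direction and side of the threshold. The Alas1 share of the 7 synthesis genes summed here was 38.4% after vehicle and 63.6% after PCN by CPM in place of FPKM (32.2% and 55.4%). With 3 libraries per group, differences within the confidence intervals given could not be resolved.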

Other observations

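Nr1d1, a clock repressor known to hold down Alas1 in liver, split the libraries across both groups. It was at 12.7 CPM in Veh replicate 3 and 15 CPM in PCN replicate 4, against 29.9 to 37.9 CPM in the other libraries. These were also the libraries with the highest Alas1 level of their groups (174 and 536 CPM). The other libraries did not keep this order. Nr1d1 was at 37.9 and 36.1 CPM in Veh replicates 5 and 6, where Alas1 was at 154 and 135 CPM. In PCN replicates 5 and 6, Nr1d1 was at 35.0 and 29.9 CPM and Alas1 at 437 and 302 CPM. The part of Nr1d1 in the Alas1 level was not tested. The log2 ratio of Nr1d1 between groups was -0.12 (adjusted p = 0.948 from edgeR). The Nr1d1 values were singled out after they were seen.

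Veh replicate 5 was the lowest of the 6 libraries for Uros (6.10 CPM), Slc40a1, the iron exporter (135 CPM, against 166 to 291 CPM), and Nfe2l2 (214 CPM, against 273 to 350.0 CPM). It was the highest for Fech (132 CPM), Nr1d2, another clock repressor (106 CPM, against 36.1 to 68.6 CPM), and Bach1, a heme-binding repressor of Hmox1 (102 CPM, against 68.9 to 85.7 CPM). It had 18.5 CPM of the distal colon gene Hoxb13, against 1.52 to 5.37 CPM in the other libraries and 22.6 CPM in PCN replicate 4. The 6 Hox position genes, Hoxb13 among them, summed to 134 CPM in Veh replicate 5 and 134 to 193 CPM in the other libraries. Slc40a1, Nr1d2, Bach1 and Hoxb13 were named after their values were seen. How often each library was the highest or lowest over all genes was not counted, so these values do not tell whether Veh replicate 5 stood apart.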
